A study of Mus musculus with 6 samples.

Results

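The squamous and hair keratins are the keratin genes other than the simple and basal epithelial ones. They were taken as every gene of the count table named Krt plus a number, leaving out Krt5, Krt7, Krt8, Krt14, Krt15, Krt18 and Krt19. That gave 48 of the 24091 genes in the table, of which 24 are type I genes on chromosome 11 and 24 are type II genes on chromosome 15. The data are RNA-seq counts of 6 mouse prostate libraries in 3 groups of 2. Tumors of the 12Q group came from males with a humanised allele that encodes a tract of 12 glutamines, and tumors of the 48Q group from males whose allele encodes 48. All tumor mice also carried 1 Ctnnb1(Ex3)L allele, in which exon 3 of the β-catenin gene can be deleted, and the PBCre-4 transgene, which drives Cre in prostate epithelium. Normal prostate of wild-type (WT) mice, which have none of these alleles, formed the remaining group. No tumor-free group carried them, so tumor and alleles cannot be told apart in the comparisons with WT. The labels give neither ages nor whether replicates were separate animals. The p-values therefore measure the spread between these libraries, part or all of which may be technical.

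Keratins form the intermediate filaments of epithelial cells. Each filament unit pairs a type I with a type II keratin, so a cell normally expresses members of both classes together. Krt1 and Krt10 mark the differentiating layers of the epidermis, Krt6, Krt16 and Krt17 are induced in wounded or rapidly growing epithelium, and Krt4 and Krt13 belong to lining epithelia such as the oesophagus. The hair follicle has its own sets. Krt25 to Krt28 and Krt71 to Krt74 are made in the inner root sheath that surrounds the growing hair, while the hard keratins Krt31 to Krt40 and Krt81 to Krt87 build the hair shaft itself, where keratin-associated proteins cross-link them. Wnt/β-catenin signalling through LEF/TCF factors is known for its part in hair follicle formation and hair shaft differentiation in skin. None of these hair genes is a marker of normal prostate.

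The libraries held 26416181 to 28559546 counts. Levels are in CPM, edgeR's counts scaled to the library total after TMM normalization. A count of 3 corresponded to 0.0855 to 0.156 CPM, so lower levels rest on fewer than 3 reads. A count was found for 45 members, 34 members reached 10 counts in at least 1 library, and 30 passed the low-count filter and were tested among 15050 genes. Of those 30, 13 had 0 counts in both WT libraries and entered the test through the tumors alone, so that counts and medians over the tested members describe them and support nothing further. In 12Q tumors 32 of the 48 members had a count in both libraries, in 48Q tumors 42 did, and in WT prostate 15 did. These are bulk tissues, in which fewer cells of a type and less RNA per cell cannot be told apart.

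Summed over all members, the level was 814 and 984 CPM in 12Q tumors, 214 and 272 CPM in 48Q tumors and 105 and 75.8 CPM in WT prostate. The 3 groups did not overlap, with 12Q highest and WT lowest. Krt23, Krt73 and Krt80 together made up 721 to 832 CPM in 12Q, 127 to 164 CPM in 48Q and 62.6 to 65.2 CPM in WT. Per kilobase of exon, type I members summed to 340 and 330 CPM in 12Q, 88.6 and 103 CPM in 48Q and 61.0 and 43.3 CPM in WT. Of this, Krt23 alone held 325 and 275 CPM in 12Q, 67.0 and 76.5 CPM in 48Q and 39.5 and 41.5 CPM in WT. Type II members summed to 81.1 and 145 CPM in 12Q, 29.5 and 41.0 CPM in 48Q and 3.37 and 3.06 CPM in WT. Type II members thus held 19.3% and 30.5% of the summed level per kilobase in 12Q tumors and 25.0% and 28.5% of it in 48Q tumors. In WT they held 5.23% and 6.61% of it, all tumor libraries lying above both WT libraries. The 7 keratins left out by the rule are not counted here, so these shares do not give the type balance of the tissue.

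A gene was called when its adjusted p in edgeR's quasi-likelihood test was below 0.05 over all tested genes. In 12Q tumors against WT, 11 tested members were called higher, 1 lower and 18 not. Of all tested genes, 22.4% were called in that comparison, 11.2% in each direction. In 48Q tumors against WT, 11 members were called higher, 0 lower and 19 not. Of all tested genes, 5.18% were called there, 3.95% higher and 1.23% lower. These comparisons share the WT libraries, and 8 members were called higher in both. The median log2 fold change of the tested members was 3.80 in 12Q and 6.62 in 48Q, against -0.01 and 0.02 over all tested genes. A further median set genes at 0 counts in WT to their bound. Genes with 1 to 3 counts in all in a group entered by their CPM ratio, and those with too few counts for either by 0. This median was 1.91 in 12Q and 3.29 in 48Q. Between the tumors, 2 members were called higher in 12Q than in 48Q, 3 lower and 25 not. Of all tested genes, 4.17% were called there, 1.01% higher and 3.16% lower. The median was -1.003 for the tested members and 0.00 over all tested genes. These medians moved with the members tested and with 1 library. Between tumors the members' median was -2.43 without 12Q replicate 2 (34 tested) and -1.78 with no low-count filter (45 tested), and in 12Q against WT it was 7.25 when those groups alone were fitted (17 tested). The calls in 48Q against WT depended on single libraries. Without WT replicate 1, 0 members and 0 of all tested genes were called by edgeR, although 25 members and 2972 genes had an unadjusted p below 0.05. Without WT replicate 2, 3 members were called, and without either 48Q replicate, 4. Between the tumors, edgeR called 0 members without 48Q replicate 1 (9 had an unadjusted p below 0.05), 1 without 12Q replicate 2, and 2 without 12Q replicate 1 or 48Q replicate 2.

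**Figure D1:**
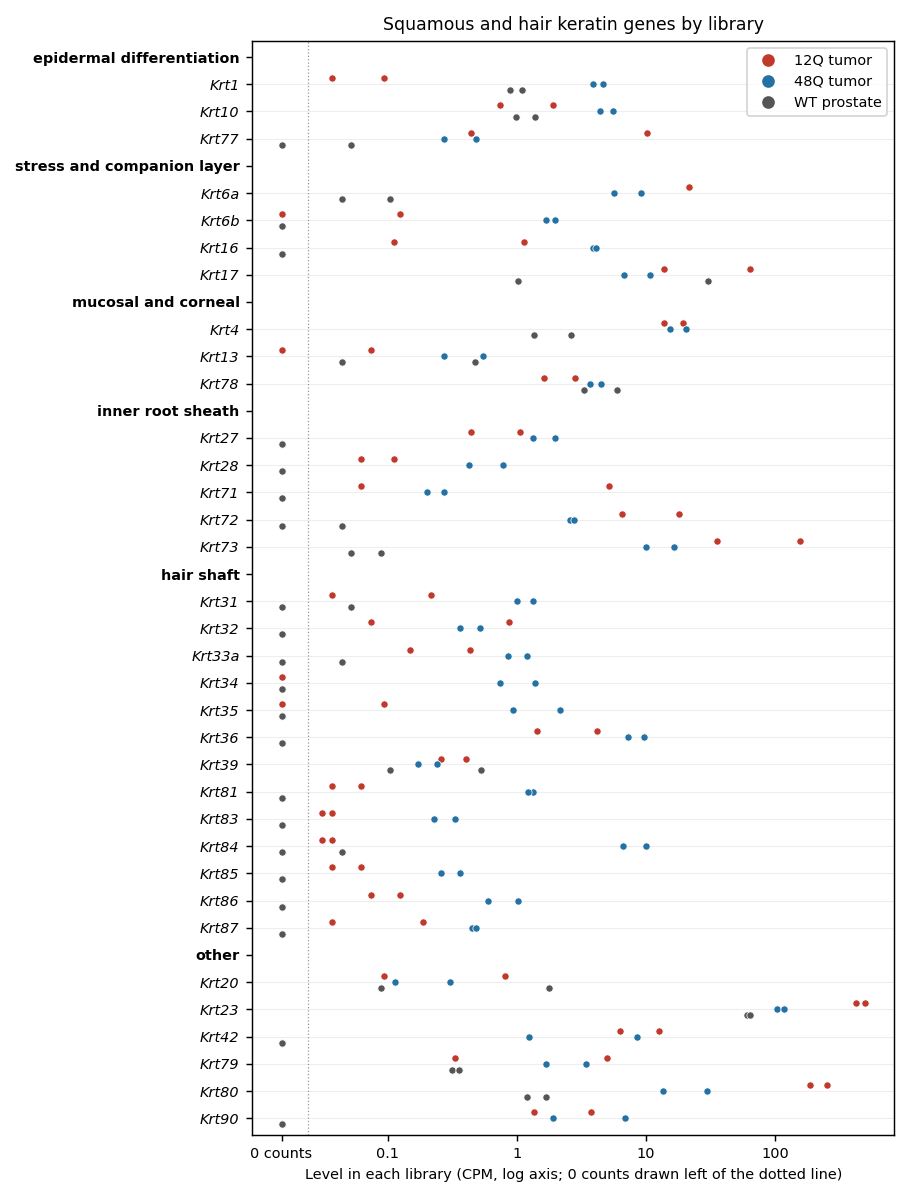
Level of each of the 34 members with 10 counts or more in at least 1 library, in CPM on a log axis, with 1 point per library (2 each of 12Q tumors, 48Q tumors and WT prostate) and libraries with 0 counts drawn left of the dotted line. Krt23 and Krt80 have their highest points in 12Q, most hair shaft keratins have theirs in 48Q, and most WT points of the hair follicle keratins lie at 0 counts or below 0.156 CPM.

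Among the epidermal keratins, Krt1 set the tumors apart from each other and Krt10 did not pass in any comparison. Krt1 (mm10, 1-based, chromosome 15, 101845426 to 101850786), the type II keratin of suprabasal epidermis, had 0.0370 and 0.0928 CPM in 12Q tumors, 3.91 and 4.65 CPM in 48Q tumors and 1.10 and 0.884 CPM in WT prostate. The groups did not overlap, and 12Q lay below WT while 48Q lay above it. Krt1 was lower in 12Q than in WT, with a log2 fold change of -3.81 ± 0.70 (SE, as throughout; edgeR adjusted p = 0.0156). It was also lower in 12Q than in 48Q (-5.92 ± 0.72, edgeR adjusted p = 0.0229), whereas 48Q against WT did not pass (2.11 ± 0.57, edgeR adjusted p = 0.0837). The call against WT had an edgeR adjusted p of 0.0554 without 48Q replicate 1 and 0.0583 without 48Q replicate 2, which enter that test through the shared spread. The call between tumors was lost without any 1 of the 4 tumor libraries (edgeR adjusted p 0.0583 to 0.105). Its type I partner Krt10 had 0.740 and 1.92 CPM in 12Q, 5.54 and 4.39 CPM in 48Q and 0.991 and 1.37 CPM in WT. Both 48Q libraries were the highest of the 6, but no comparison passed. The log2 fold change of Krt10 was 0.17 for 12Q against WT, 2.07 for 48Q against WT and -1.89 between tumors (edgeR adjusted p 0.863, 0.112 and 0.129). Krt77, a type II keratin of the epidermis and sweat ducts, stood at 0.444 and 10.2 CPM in 12Q, 0.271 and 0.485 CPM in 48Q and 0.0521 and 0 CPM in WT. It was called higher in 12Q than in WT (edgeR adjusted p = 0.0397), a ratio of 241 with an exact 95% interval of 42.9 to 9540, but 12Q replicate 2 decides the size. Without that library the ratio was 18.6 (2.75 to 793) and edgeR's adjusted p was 0.114, and without 12Q replicate 1 the ratio was 427. The call was also lost without either 48Q or either WT replicate (edgeR adjusted p 0.0540 to 0.159), with a ratio of 110 without WT replicate 2. In 48Q against WT the ratio for Krt77 was 15.9 (2.61 to 652, edgeR adjusted p = 0.303), and between tumors its log2 fold change was 3.80 ± 1.43 (edgeR adjusted p = 0.161). Krt2 and Krt9, of upper epidermis and of palm and sole skin, stayed below 10 counts in every library.

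The stress keratins were led by Krt6a (chromosome 15, 101689928 to 101694305), which had 21.4 and 21.4 CPM in 12Q tumors, 5.69 and 9.15 CPM in 48Q tumors and 0.104 and 0.0442 CPM in WT prostate. All tumor libraries lay far above WT, and both 12Q libraries above both 48Q libraries. Krt6a was higher in 12Q than in WT by a ratio of 298 (exact 95% interval 102 to 1448, edgeR adjusted p = 0.0027). It was higher in 48Q than in WT by a ratio of 104 (35.4 to 506, edgeR adjusted p = 0.00991). The difference of 12Q from 48Q did not pass (log2 fold change of 1.53 ± 0.41, edgeR adjusted p = 0.0838). Without WT replicate 1 the ratio was 484 in 12Q and 169 in 48Q, and the 48Q call had an edgeR adjusted p of 0.0800. Its neighbour Krt6b, a near copy, ran the other way between the tumors, with 0 and 0.124 CPM in 12Q, 1.99 and 1.68 CPM in 48Q and 0 in both WT libraries. Krt6b did not pass in 48Q against WT (at least 12.7-fold, edgeR adjusted p = 0.0580) or between tumors (log2 fold change of -4.72 ± 1.16, edgeR adjusted p = 0.0822), and in 12Q against WT edgeR's adjusted p was 0.261. Of all 50-base stretches of Krt6a's exons, 57.2% also occur in another gene, 40.2% in Krt6b, so how reads were divided between the pair is uncertain.

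Krt16, the type I partner of Krt6, had 0.111 and 1.14 CPM in 12Q, 3.88 and 4.13 CPM in 48Q and 0 in both WT libraries. The 48Q libraries were highest, yet no comparison passed. The bounds were at least 4.34-fold in 12Q and at least 27.7-fold in 48Q against WT (edgeR adjusted p = 0.0636 and 0.0541), and the log2 fold change between tumors was -2.65 (edgeR adjusted p = 0.192). Krt17, found in basal cells of several glands as well as in hair follicles, had 13.8 and 64.3 CPM in 12Q, 6.80 and 10.8 CPM in 48Q and 30.3 and 1.02 CPM in WT. The WT libraries enclosed both 48Q libraries and the lower 12Q library, and no comparison passed. The log2 fold change of Krt17 was 1.32 for 12Q against WT, -0.83 for 48Q against WT and 2.15 between tumors (edgeR adjusted p 0.505, 0.734 and 0.355). Krt75, of the companion layer, stayed below 10 counts.

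Of the mucosal keratins, Krt4 (chromosome 15, 101918535 to 101924735), the type II keratin of non-cornified stratified epithelia, had 19.5 and 13.7 CPM in 12Q tumors, 15.2 and 20.6 CPM in 48Q tumors and 1.36 and 2.61 CPM in WT prostate. The tumor groups overlapped each other and both lay above WT. Krt4 was 8.37-fold higher in 12Q than in WT (log2 fold change of 3.06 ± 0.46, edgeR adjusted p = 0.0095) and 9.04-fold higher in 48Q than in WT (3.17 ± 0.47, edgeR adjusted p = 0.0251). Between the tumors its log2 fold change was -0.11 ± 0.42 (edgeR adjusted p = 0.885). The 48Q call was lost without either 48Q replicate or WT replicate 1 (edgeR adjusted p up to 0.128). Krt13, the type I keratin that pairs with Krt4, was too low to be tested, with 0.0740 and 0 CPM in 12Q, 0.271 and 0.542 CPM in 48Q and 0.469 and 0.0442 CPM in WT. Krt78 had 1.63 and 2.82 CPM in 12Q, 3.67 and 4.50 CPM in 48Q and 5.94 and 3.32 CPM in WT. Its 12Q libraries were the lowest, and no comparison passed. The log2 fold change of Krt78 was -1.05 for 12Q against WT, -0.18 for 48Q against WT and -0.88 between tumors (edgeR adjusted p 0.203, 0.865 and 0.339). The corneal keratin Krt12 and the palate keratin Krt76 stayed below 10 counts.

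Inner root sheath keratins summed to 59.7 and 163 CPM over all 8 in 12Q tumors and to 15.9 and 21.4 CPM in 48Q tumors, and were nearly absent from WT prostate, at 0.104 and 0.133 CPM. Krt73 (chromosome 15, 101793308 to 101802332), a type II keratin of the inner root sheath cuticle in human hair, made up most of this, with 35.8 and 156 CPM in 12Q, 10.1 and 16.6 CPM in 48Q and 0.0521 and 0.0884 CPM in WT. Both 12Q libraries lay above both 48Q libraries, and those above WT. Krt73 was higher in 12Q than in WT by a ratio of 1407 (exact 95% interval 481 to 6824, edgeR adjusted p = 0.00439) and in 48Q than in WT by 187 (63.7 to 908, edgeR adjusted p = 0.0227). Krt72, also of the cuticle, had 18.2 and 6.50 CPM in 12Q, 2.59 and 2.77 CPM in 48Q and 0 and 0.0442 CPM in WT, the same order of groups. Its ratio was 494 in 12Q against WT (88.3 to 19526, edgeR adjusted p = 0.00556) and 112 in 48Q against WT (19.9 to 4448, edgeR adjusted p = 0.0283). Between the tumors neither passed, with log2 fold changes of 2.84 ± 0.69 for Krt73 and 2.20 ± 0.67 for Krt72 (edgeR adjusted p 0.0700 and 0.109). In 12Q against WT the ratio of Krt73 was 2167 without 12Q replicate 1 and 498 without 12Q replicate 2. That of Krt72 was 272 without 12Q replicate 1, 759 without 12Q replicate 2 and 267 without WT replicate 1, and all these calls held. In 48Q against WT the ratio of Krt72 was 60.6 without WT replicate 1, where its call was lost.

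The type I sheath keratins were lower and had their higher libraries in 48Q. Krt27 had 0.444 and 1.05 CPM in 12Q, 1.96 and 1.34 CPM in 48Q and 0 in both WT libraries. It was called at least 5.18-fold higher in 12Q than in WT (edgeR adjusted p = 0.0236) and at least 11.4-fold higher in 48Q than in WT (edgeR adjusted p = 0.0387). Between the tumors its log2 fold change was -1.13 ± 0.72 (edgeR adjusted p = 0.364). Krt28 had 0.111 and 0.0619 CPM in 12Q, 0.783 and 0.428 CPM in 48Q and 0 in WT. It passed in no comparison, with edgeR adjusted p = 0.133 in 12Q against WT, 0.0583 in 48Q against WT (at least 4.19-fold) and 0.129 between tumors (log2 fold change of -2.76). Krt71, a type II keratin of the whole sheath, had 5.22 and 0.0619 CPM in 12Q, 0.271 and 0.200 CPM in 48Q and 0 in WT. It was high in 1 library alone and was not tested. In 12Q the call of Krt27 was lost without 12Q replicate 2 (bound of 3.07), either 48Q or either WT replicate (edgeR adjusted p 0.0563 to 0.0663). In 48Q the calls of Krt27 and Krt72 were lost without any 1 of the 48Q and WT libraries, and that of Krt73 without either WT library (edgeR adjusted p up to 0.157, 0.126 and 0.143). Krt25 and Krt26 stayed below 10 counts, and Krt74 had 0 counts in all 6 libraries.

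Hair shaft keratins had the opposite order of tumor groups to Krt72 and Krt73. Summed over all 16, they had 2.22 and 6.75 CPM in 12Q tumors, 28.5 and 22.7 CPM in 48Q tumors and 0.156 and 0.619 CPM in WT prostate. Krt36 and Krt84 made up most of the mean 48Q sum of 25.6 CPM, with means of 8.45 and 8.30 CPM. Both 48Q libraries were above both 12Q libraries for 13 of the 16, where 34.2% of all genes with a count showed this order. The 48Q mean was higher for 14. The 13 include genes with few reads, such as Krt33b, Krt82 and Krt83. The share covers genes of any depth and so is not matched to them. Of the 11 tested, 4 were called higher in 48Q than in WT, 1 higher in 12Q than in WT and 2 lower in 12Q than in 48Q. Over all tested genes the shares called in these directions were 3.95%, 11.2% and 3.16%. Several of the 11, Krt81 and Krt84 among them, had few or no reads outside 48Q and passed the low-count filter through it alone. Their calls describe them and support nothing further. Paralogs of this set share sequence and are not independent, with 43.3% of the 50-base stretches of Krt86, 37.7% of Krt81 and 33.1% of Krt34 also present in another gene.

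Krt84 (chromosome 15, 101525026 to 101532820), a type II hard keratin found in the tongue in human, had 0.0370 and 0.0309 CPM in 12Q, 9.93 and 6.67 CPM in 48Q and 0 and 0.0442 CPM in WT. Thus 1 read was seen in each 12Q library and in 1 WT library, whereas both 48Q libraries were far above. Krt84 was higher in 48Q than in WT by a ratio of 345 (exact 95% interval 61.7 to 13658, edgeR adjusted p = 0.0136). It was lower in 12Q than in 48Q by a ratio of 0.00408 (0.000493 to 0.0148, log2 fold change -7.77 ± 0.85, edgeR adjusted p = 0.0188), and did not pass in 12Q against WT (edgeR adjusted p = 0.852). It had no 50-base stretch in common with another gene. Without WT replicate 1 the 48Q ratio was 187 (33.4 to 7392, edgeR adjusted p = 0.0800), and without 48Q replicate 1 edgeR's adjusted p was 0.0587. The tumor difference was lost without 12Q replicate 1, 12Q replicate 2 or 48Q replicate 1 (edgeR adjusted p up to 0.0872).

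Krt36, a type I hard keratin also found in the tongue, was the most abundant shaft keratin in 12Q, with 1.44 and 4.18 CPM, against 9.69 and 7.21 CPM in 48Q and 0 in both WT libraries. It was at least 19.4-fold higher in 12Q than in WT (edgeR adjusted p = 0.0115) and at least 58.5-fold higher in 48Q than in WT (edgeR adjusted p = 0.0227). Between the tumors its log2 fold change was -1.58 ± 0.67 (edgeR adjusted p = 0.207). Without 12Q replicate 2 the bound in 12Q was 9.98, and the call held. Krt81, of the hair cortex, had 0.0370 and 0.0619 CPM in 12Q, 1.32 and 1.23 CPM in 48Q and 0 in WT. It was at least 8.82-fold higher in 48Q than in WT (edgeR adjusted p = 0.0326). It was lower in 12Q than in 48Q by a ratio of 0.0397 (0.00803 to 0.120, log2 fold change -4.55 ± 0.81, edgeR adjusted p = 0.0496). Krt86 had 0.0740 and 0.124 CPM in 12Q, 1.02 and 0.599 CPM in 48Q and 0 in WT. It was at least 5.61-fold higher in 48Q than in WT (edgeR adjusted p = 0.0484) and did not pass between tumors (log2 fold change of -2.96, edgeR adjusted p = 0.105). Of the 12 alternatives run, the call of Krt81 between tumors held in 5 and that of Krt86 in 48Q against WT in 4. The 48Q calls of Krt36, Krt81 and Krt86 were each lost without any 1 of the 48Q and WT libraries (edgeR adjusted p up to 0.105, 0.200 and 0.273).

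The remaining shaft keratins with 10 counts or more did not pass in any comparison. Krt31 had 0.0370 and 0.217 CPM in 12Q, 0.993 and 1.34 CPM in 48Q and 0.0521 and 0 CPM in WT (edgeR adjusted p = 0.0643 for 48Q against WT and 0.116 between tumors). Krt34 was at 0 counts in both 12Q libraries, had 1.38 and 0.741 CPM in 48Q and was at 0 in both WT libraries. The bound was at least 10.4-fold lower in 12Q than in 48Q (edgeR adjusted p = 0.0591) and at least 7.35-fold higher in 48Q than in WT (edgeR adjusted p = 0.0642). Krt35, an early keratin of the hair matrix, had 0 and 0.0928 CPM in 12Q, 0.933 and 2.14 CPM in 48Q and 0 in WT (edgeR adjusted p = 0.0642 for 48Q against WT and 0.0871 between tumors). All 3 thus had both 48Q libraries above every other library. Krt33a had 0.148 and 0.433 CPM in 12Q, 1.20 and 0.855 CPM in 48Q and 0 and 0.0442 CPM in WT (edgeR adjusted p 0.0919, 0.0576 and 0.226 for 12Q against WT, 48Q against WT and between tumors). Krt87 had 0.0370 and 0.186 CPM in 12Q, 0.452 and 0.485 CPM in 48Q and 0 in WT, the same order of groups. Krt83, with 0.0370 and 0.0309 CPM in 12Q, 0.331 and 0.228 CPM in 48Q and 0 in WT, was not tested. The row of Krt85 had 0.0370 and 0.0619 CPM in 12Q, 0.361 and 0.257 CPM in 48Q and 0 in WT. It was not tested, and its value is uncertain because its interval in the table also spans Krt81, Krt83 and Krt86 to Krt88. Krt32 of the hair cuticle did not share this order, with 0.0740 and 0.866 CPM in 12Q, 0.361 and 0.513 CPM in 48Q and 0 in WT. Nor did Krt39, with 0.259 and 0.402 CPM in 12Q, 0.241 and 0.171 CPM in 48Q and 0.104 and 0.530 CPM in WT. Krt33b, Krt40 and Krt82 stayed below 10 counts.

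**Figure D2:**
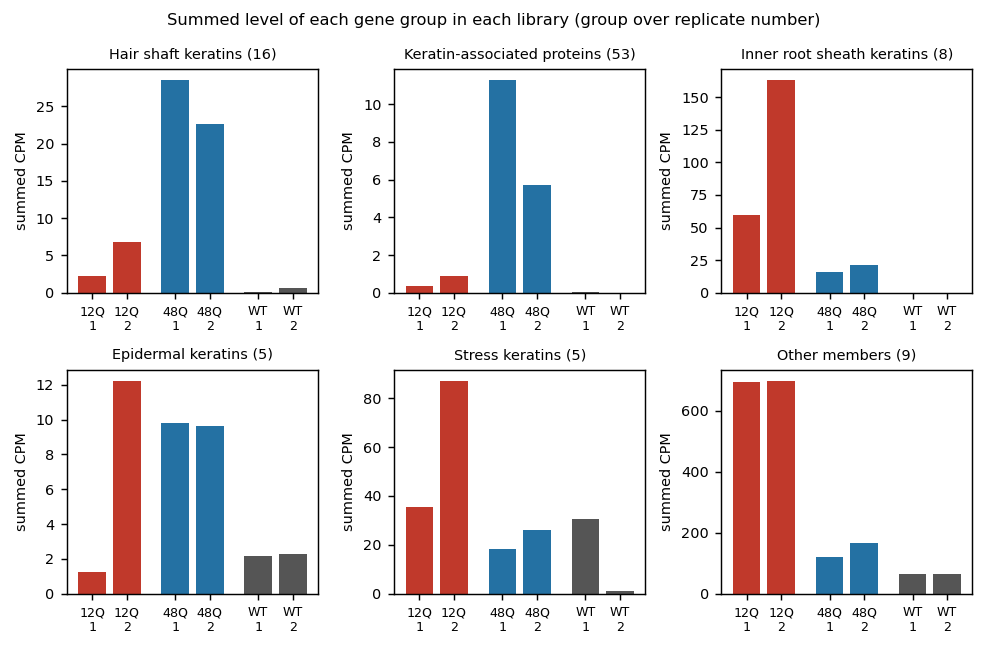
Summed CPM of 5 keratin sets and of the keratin-associated protein genes, 1 bar per library, each panel with its own axis from 0 (12Q tumors, 48Q tumors, WT prostate; 2 libraries each; number of genes in parentheses). Hair shaft keratins (22.7 to 28.5 CPM) and keratin-associated proteins (5.70 to 11.3 CPM) are highest in 48Q, and inner root sheath keratins (59.7 to 163 CPM) and the other members (694 to 699 CPM) in 12Q.

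As β-catenin acts through LEF/TCF factors, the 250 bases before the start of each gene were searched for motifs on either strand. Both tumor groups carried the β-catenin allele. Whether these motifs bear on the order of tumor libraries in 13 of 16 hair shaft keratins was not tested. The LEF/TCF motif was any of 4 words, written CTTTGAA as the first, CTTTGAT as the next, then CTTTGTA and, as the last, CTTTGTT. The TATA box was TATAAA, and no word of either motif can coincide with a word of the other. RefSeq promoters of GRCm38.p6 were at hand for 31 of the 48 members. Those of the shaft keratins Krt33a, Krt35, Krt81, Krt83 and Krt85 to Krt87 were missing, so Krt81, called between the tumors, was not searched. The LEF/TCF letters were in 5 of 9 promoters of hair shaft members (55.6%) and in 1 of 7 of inner root sheath members (14.3%). They were in 9 of 32 promoters of all members (28.1%) and in 14.8% of all 32851 promoters. The TATA box was in 6 of 9 shaft promoters (66.7%), in 7 of 7 sheath promoters and in 12.4% of all. The 5 shaft genes with a LEF/TCF match were Krt31, Krt32, Krt33b, Krt34 and Krt39. Of these, Krt32 and Krt39 lacked the order described above, and Krt33b stayed below 10 counts. Krt84 and Krt36, which had the highest level per kilobase of the set in 48Q, had no match. A match here is a run of letters and not a site shown to be bound. Shown are the promoters of Krt31 and Krt34, with 2 matches each, of Krt84, called lower in 12Q than in 48Q, and of Krt23, called higher in 12Q than in 48Q. All lie on the minus strand, are written 5′ to 3′ and end at the base before the start, and capitals mark LEF/TCF matches. They cover chr11:100050552-100050801 for Krt31, chr11:100041555-100041804 for Krt34, chr15:101532821-101533070 for Krt84 and chr11:99493121-99493370 for Krt23.
Krt31: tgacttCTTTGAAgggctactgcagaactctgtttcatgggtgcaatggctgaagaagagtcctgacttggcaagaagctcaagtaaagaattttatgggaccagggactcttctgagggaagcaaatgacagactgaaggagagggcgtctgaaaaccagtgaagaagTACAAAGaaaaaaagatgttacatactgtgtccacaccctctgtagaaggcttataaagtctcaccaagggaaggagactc
Krt34: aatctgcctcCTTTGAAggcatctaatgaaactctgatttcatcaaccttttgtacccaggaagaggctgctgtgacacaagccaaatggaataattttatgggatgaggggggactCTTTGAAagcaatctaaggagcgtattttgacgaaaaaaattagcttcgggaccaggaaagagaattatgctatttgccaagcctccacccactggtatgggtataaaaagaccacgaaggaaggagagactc
Krt84: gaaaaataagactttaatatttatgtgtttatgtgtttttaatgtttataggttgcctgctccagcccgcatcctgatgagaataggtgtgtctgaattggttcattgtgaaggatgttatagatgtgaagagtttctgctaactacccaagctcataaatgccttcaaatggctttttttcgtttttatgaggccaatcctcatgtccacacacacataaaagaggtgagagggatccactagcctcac
Krt23: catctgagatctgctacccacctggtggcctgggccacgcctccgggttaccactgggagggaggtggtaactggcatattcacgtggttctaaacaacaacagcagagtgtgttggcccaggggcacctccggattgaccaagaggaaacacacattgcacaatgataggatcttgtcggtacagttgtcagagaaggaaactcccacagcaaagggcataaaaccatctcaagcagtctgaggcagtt
The matches begin 244 and 81 bases upstream of the start in Krt31 and 240 and 133 bases upstream in Krt34. Paralogs such as these share ancestry, so their matches are not independent of each other.

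The highest member in all 3 groups lay outside the skin and hair sets. Krt23 (chromosome 11, 99477973 to 99493110), a type I keratin known from simple epithelia such as those of gut and liver, had 499.9 and 424 CPM in 12Q tumors, 103 and 118 CPM in 48Q tumors and 60.9 and 63.9 CPM in WT prostate. The groups did not overlap, with 12Q well above the others and 48Q above WT. Krt23 was 7.41-fold higher in 12Q than in WT (log2 fold change of 2.89 ± 0.25, edgeR adjusted p = 0.00294) and 4.18-fold higher in 12Q than in 48Q (2.06 ± 0.24, edgeR adjusted p = 0.0205). In 48Q against WT it did not pass (0.83 ± 0.23, edgeR adjusted p = 0.0917). The difference between tumors was lost without 48Q replicate 1 or 2 (edgeR adjusted p = 0.181 and 0.107). Per kilobase of exon, the mean level of Krt23 was 299.9 CPM in 12Q, 71.8 CPM in 48Q and 40.5 CPM in WT.

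Krt80 (chromosome 15, 101347444 to 101370125), a type II keratin that appears near cell contacts in many differentiated epithelia, had 185 and 253 CPM in 12Q, 13.5 and 29.7 CPM in 48Q and 1.67 and 1.19 CPM in WT. It was the only member called in all 3 comparisons, and each group lay clear of the next. Krt80 was 153-fold higher in 12Q than in WT (log2 fold change of 7.26 ± 0.54, edgeR adjusted p = 0.0027) and 15.1-fold higher in 48Q than in WT (3.92 ± 0.48, edgeR adjusted p = 0.0175). It was 10.1-fold higher in 12Q than in 48Q (3.34 ± 0.44, edgeR adjusted p = 0.0246). The 48Q call was lost without either WT replicate (edgeR adjusted p up to 0.107), and the fold was 9.44 without 48Q replicate 2. The tumor difference was lost without either 12Q replicate or 48Q replicate 1 (edgeR adjusted p up to 0.0867), and its fold was 16.2 without 48Q replicate 2. Its exons overlap another annotated gene in part, with 2.74% of 50-base stretches shared.

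Krt42, a mouse type I keratin that neighbours Krt17, had 6.29 and 12.7 CPM in 12Q, 1.23 and 8.58 CPM in 48Q and 0 in both WT libraries. It was at least 65.7-fold higher in 12Q than in WT (edgeR adjusted p = 0.0183). It did not pass in 48Q against WT (at least 34.0-fold, edgeR adjusted p = 0.0521) or between tumors (log2 fold change of 0.95, edgeR adjusted p = 0.557). Krt90, a type II gene, had 1.37 and 3.74 CPM in 12Q, 1.90 and 6.93 CPM in 48Q and 0 in WT, the tumors overlapping. It was at least 17.7-fold higher in 12Q than in WT (edgeR adjusted p = 0.0222) and at least 30.5-fold higher in 48Q than in WT (edgeR adjusted p = 0.0425). Between the tumors its log2 fold change was -0.78 (edgeR adjusted p = 0.593). In 12Q the calls of Krt42 and Krt90 were lost without 12Q replicate 2 (bounds of 43.5 and 9.47, edgeR adjusted p 0.0625 and 0.0680) and without either WT replicate (edgeR adjusted p up to 0.0642 and 0.0692). The 48Q call of Krt90 was lost without any 1 of the 6 libraries (edgeR adjusted p 0.0516 to 0.148). Its bound was 47.9 without 48Q replicate 1 and 13.1 without 48Q replicate 2. Krt79, known from the hair follicle opening and sebaceous duct, had 0.333 and 4.95 CPM in 12Q, 1.69 and 3.42 CPM in 48Q and 0.313 and 0.354 CPM in WT. It passed in no comparison, with log2 fold changes of 2.97 for 12Q against WT, 2.92 for 48Q against WT and 0.05 between tumors (edgeR adjusted p 0.133, 0.211 and 0.981). Krt20, of intestinal and urothelial surface cells, had 0.814 and 0.0928 CPM in 12Q, 0.301 and 0.114 CPM in 48Q and 1.77 and 0.0884 CPM in WT, with overlapping groups. Krt222 stayed below 10 counts, and Krt24 and Krt88 had 0 counts in all 6 libraries.

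**Figure D3:**
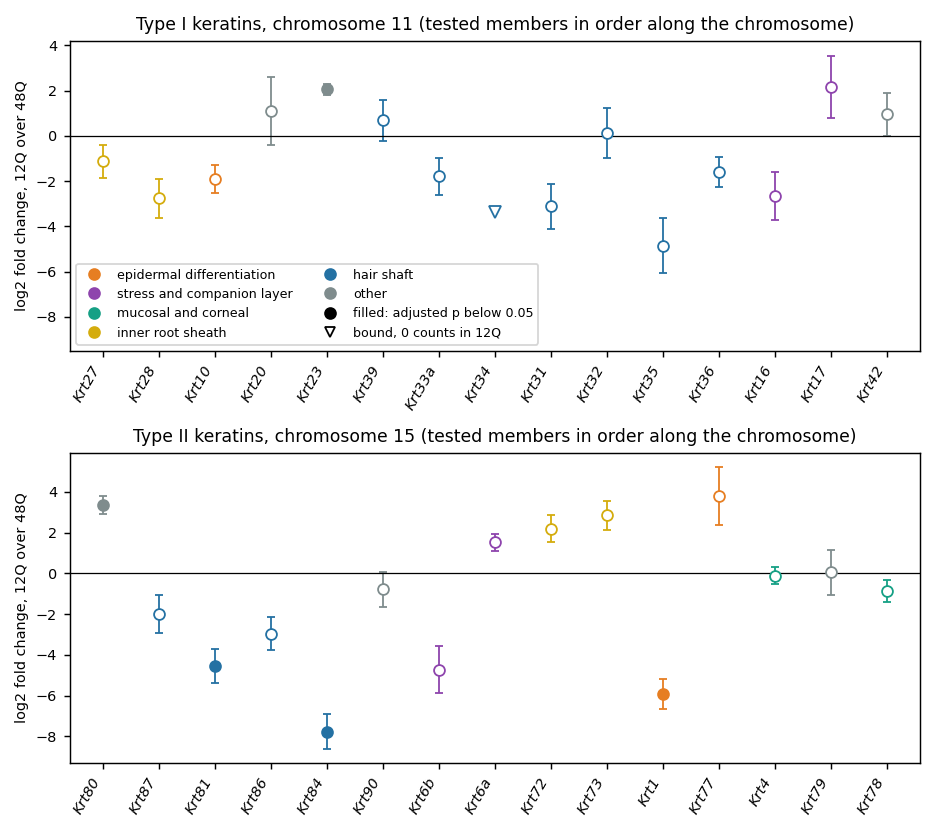
Fitted log2 fold change of 12Q over 48Q tumors for the 30 tested members, in gene order along chromosome 11 (type I, above) and chromosome 15 (type II, below). Filled points passed the test, open points did not, bars are approximate standard errors, and the triangle of Krt34 is a bound because its 12Q libraries held 0 counts. Krt84 (-7.77), Krt1 (-5.92) and Krt81 (-4.55) lie lowest among filled points and Krt80 (3.34) and Krt23 (2.06) highest.

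The keratin-associated proteins, small proteins that bind hair keratins into a hard matrix, had the order of groups of the hair shaft keratins. Of 53 Krtap genes in the table, 25 had a count in both 48Q libraries, 3 in both 12Q libraries and 0 in both WT libraries. Counts in 48Q with 0 counts in every 12Q and WT library were found for 25 of the 32 Krtap genes with a count in any library, where 4.83% of all genes with a count showed this. Those 25 are among the 32 through their 48Q counts alone. The share over all genes covers genes of any depth, and genes with few reads are more often at 0 elsewhere, so these shares are not matched. Together the Krtap genes held 10 and 28 counts in 12Q, 375 and 200 counts in 48Q and 1 and 0 counts in WT, so each single gene was low. Only 6 passed the low-count filter, each through its 48Q counts. Of these, 1 was called, higher in 48Q than in WT, where 3.95% of all tested genes were. The called gene was Krtap3-2, with 0.148 and 0.278 CPM in 12Q, 1.35 and 0.998 CPM in 48Q and 0.0521 and 0 CPM in WT. Its ratio of 48Q to WT was 49.0 (exact 95% interval 8.54 to 1958, edgeR adjusted p = 0.0484).

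Known partner genes of the follicle keratins, chiefly of the inner root sheath, were also examined. Of the 10 tested, 6 were called higher in 12Q than in WT, 3 higher in 48Q than in WT and 0 between the tumors (edgeR). Over all tested genes, 11.2% and 3.95% were called higher in those comparisons with WT, and 4.17% were called in either direction between the tumors. Tchh, the trichohyalin that embeds inner root sheath keratins, had 168 and 1185 CPM in 12Q, 74.2 and 146 CPM in 48Q and 0.991 and 2.12 CPM in WT (edgeR adjusted p = 0.00804 in 12Q and 0.0370 in 48Q against WT). Tgm3, a transglutaminase that cross-links them, had 38.6 and 148 CPM in 12Q, 8.64 and 24.0 CPM in 48Q and 0 and 0.133 CPM in WT (edgeR adjusted p = 0.00618 in 12Q and 0.0300 in 48Q against WT). For both genes the 12Q libraries lay above the 48Q libraries and all tumor libraries above WT.

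Among 16 tested regulators of keratin genes, 7 were called higher and 2 lower in 12Q than in WT. In 48Q against WT, 3 were called higher and 0 lower, and in 12Q against 48Q, 1 higher and 1 lower. Over all tested genes, 11.2% were called higher and 11.2% lower in 12Q against WT. The shares were 3.95% and 1.23% in 48Q against WT, and 1.01% and 3.16% in 12Q against 48Q. Dlx3, a homeobox factor of hair and epidermal differentiation, had 64.7 and 114 CPM in 12Q, 15.1 and 22.7 CPM in 48Q and 0.156 and 0.398 CPM in WT. It was 4.73-fold higher in 12Q than in 48Q (log2 fold change of 2.24 ± 0.43, edgeR adjusted p = 0.0459). Lef1, the β-catenin partner of hair precursors, had 16.6 and 26.3 CPM in 12Q, 44.9 and 34.0 CPM in 48Q and 2.66 and 5.88 CPM in WT. It was called higher in 12Q and in 48Q than in WT (edgeR adjusted p = 0.0203 and 0.0269) and not between tumors (-0.88 ± 0.45, edgeR adjusted p = 0.262). Trp63, the p63 factor of basal and stratified epithelia, had 0.0370 and 0.186 CPM in 12Q, 29.6 and 24.2 CPM in 48Q and 33.9 and 42.9 CPM in WT. It was lower in 12Q than in 48Q (log2 fold change of -7.80 ± 0.59, edgeR adjusted p = 0.00813). Grhl3, a grainyhead factor of the epidermal barrier, had 6.73 and 6.81 CPM in 12Q, 0.873 and 1.28 CPM in 48Q and 0 in both WT libraries. It was at least 46.8-fold higher in 12Q than in WT (edgeR adjusted p = 0.00519) and at least 7.46-fold higher in 48Q than in WT (edgeR adjusted p = 0.0282). Cebpb, a leucine zipper factor of keratinocyte differentiation, had 52.97 and 76.8 CPM in 12Q, 25.7 and 22.8 CPM in 48Q and 16.8 and 9.06 CPM in WT. Prdm1, a transcriptional repressor that acts in epidermal terminal differentiation, had 51.0 and 105 CPM in 12Q, 12.1 and 21.4 CPM in 48Q and 0.730 and 5.57 CPM in WT. Cebpb and Prdm1 were called higher in 12Q than in WT (edgeR adjusted p = 0.0115 and 0.0212) and did not pass in 48Q against WT (edgeR adjusted p = 0.192 and 0.157). Between tumors, Grhl3, Cebpb and Prdm1 did not pass (edgeR adjusted p = 0.0615, 0.0791 and 0.163). Dlx3, Grhl3, Cebpb and Prdm1 had both 12Q libraries above both 48Q libraries, and Lef1 and Trp63 had both below. Hoxc13 and Foxn1, which control hair shaft keratins in mouse skin, were too low to test. Hoxc13 was found with 5 and 9 counts in 48Q and with 0 elsewhere. Foxn1 gave 1 and 2 counts in 12Q tumors, 6 and 6 counts in 48Q tumors, and 0 in WT.

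Of 13 tested genes that anchor or bundle keratin filaments, 7 were called higher and 1 lower in 12Q than in WT. In 48Q against WT, 3 were called higher, and in 12Q against 48Q, 2 lower. Over all tested genes, 11.2% were called in each direction in 12Q against WT, 3.95% higher in 48Q against WT and 3.16% lower in 12Q against 48Q. Hrnr, encoding hornerin of the cornified layer, had 0 and 0.0309 CPM in 12Q, 4.94 and 7.13 CPM in 48Q and 0.0521 and 0.0442 CPM in WT (log2 fold change of -8.16 ± 0.93 in 12Q against 48Q, edgeR adjusted p = 0.0205). Dst, encoding a linker of keratin to hemidesmosomes, had 58.4 and 42.5 CPM in 12Q, 299 and 267 CPM in 48Q and 997 and 524 CPM in WT (-2.49 ± 0.40 in 12Q against 48Q, edgeR adjusted p = 0.0324). Lor, encoding loricrin of the cornified envelope, had 6.62 and 6.34 CPM in 12Q, 1.78 and 3.42 CPM in 48Q and 0.104 and 0.177 CPM in WT. It was called higher in both tumor groups than in WT (edgeR adjusted p = 0.00612 and 0.0296) and not between them (edgeR adjusted p = 0.181).

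Markers of other cell types moved with some of these results. All 5 basal markers (Trp63, Krt5, Krt14, Krt15 and Col17a1) were called lower in 12Q than in WT and 4 of 5 lower in 12Q than in 48Q. Their summed level was 1.59 to 5.14 CPM in 12Q, 223 to 265 CPM in 48Q and 232 to 264 CPM in WT. Over all tested genes, 11.2% were called lower in 12Q than in WT and 3.16% lower in 12Q than in 48Q. Krt1, Krt81 and Krt84 were also called lower in 12Q than in 48Q, and the part of basal cells in this was not tested. The basal markers did not pass in 48Q against WT (edgeR adjusted p 0.465 to 0.929), which with 2 libraries per group does not show that they were unchanged. Seminal vesicle genes, a tissue that adjoins the prostate, summed to 1.29 to 2.32 CPM in 12Q, 22.7 to 39.9 CPM in 48Q and 0.0521 to 0.0884 CPM in WT. Of these 5 genes, 2 were called lower in 12Q than in 48Q (3.16% of all tested genes were), the order of the shaft keratins. The part of seminal vesicle tissue was not tested. Markers of other skin cells were summed as well. The 5 melanocyte genes summed to 1.89 to 3.96 CPM in 12Q, 1.43 to 2.44 CPM in 48Q and 1.503 to 3.13 CPM in WT, so the groups overlapped. A count was found for 1 of the 5 in each 12Q library, for 2 and 3 in 48Q and for 2 and 1 in WT. The overlap of these sums thus rests on few genes. Of the melanocyte genes, Tyrp1 was at 0 counts in all 6 libraries, while Tyr was found with 38 and 6 counts in 48Q alone. Awat1 and Dgat2l6 of the sebaceous gland were at 0 in all 6. The 5 sebaceous genes summed to 0.712 to 1.11 CPM in 12Q, 0.713 to 0.722 CPM in 48Q and 0.261 to 0.354 CPM in WT. Only 1 of the 5 had a count in each 12Q library, 3 in each 48Q library, and 1 and 2 in WT. The 4 dermal papilla genes summed to 5.75 to 9.06 CPM in 12Q, 3.01 to 6.30 CPM in 48Q and 1.20 to 3.71 CPM in WT. In 12Q this overlapped the summed level of the hair shaft keratins (2.22 to 6.75 CPM). Of 2 dermal papilla genes tested, 1 was called higher and 1 lower in 12Q than in WT, and 0 were called in 48Q against WT. Of all tested genes, 11.2% were called in each direction in 12Q against WT. The 5 urothelial genes summed to 140 to 904 CPM in 12Q, 119 to 134 CPM in 48Q and 268 CPM in both WT libraries. Of the 5, 1 was called higher and 1 lower in 12Q than in WT. Although the 48Q sums were below WT, 1 was called higher in 48Q than in WT and 0 lower. Over all tested genes, 11.2% were called in each direction in 12Q against WT and 3.95% higher in 48Q against WT. The 6 prostate luminal genes, which mark the labelled tissue, summed to 802 to 16457 CPM in 12Q, 11045 to 14634 CPM in 48Q and 69026 to 98713 CPM in WT. A library had counts for 4 to 6 of them, 4 in 12Q replicate 2 and 5 in each WT library. Of 5 tested, 1 was called lower in 12Q than in WT and 1 lower in 12Q than in 48Q. Over all tested genes, 11.2% and 3.16% were. The 12Q replicates lay far apart in the luminal sum, as they did for Krt77 and Krt71.

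The 7 keratins outside the rule gave the background of the epithelium. Krt7, a simple keratin of ducts, had 206 and 391 CPM in 12Q, 23.8 and 33.3 CPM in 48Q and 8.19 and 3.58 CPM in WT. It was called higher in 12Q than in WT and than in 48Q (edgeR adjusted p = 0.00409 and 0.0289), and its call between tumors was lost without any 1 of the tumor libraries (edgeR adjusted p up to 0.160). Krt5 and Krt15 of basal cells were called lower in 12Q than in WT and than in 48Q, and Krt14 lower in 12Q than in WT, a call lost without either 12Q replicate or WT replicate 1 (edgeR adjusted p up to 0.0973). The luminal keratins Krt8, Krt18 and Krt19 passed in no comparison, and their WT replicates lay far apart, as for Krt17, at 806 and 183 CPM for Krt8, 2190 and 726 CPM for Krt18 and 2493 and 411 CPM for Krt19. None of the 7 was called in 48Q against WT (edgeR).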

How the data were processed

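The authors deposited unnormalized read counts per gene, as whole numbers, in 1 table for all 6 libraries. TopHat2 2.0.14 (mm10) and HTSeq 0.6.0 are named in the submitters' processing notes. Strand setting, gene annotation and handling of reads with several matches were not given in the sources used here, so near copies (Krt6a and Krt6b; Krt31, Krt33a, Krt33b and Krt34; Krt81, Krt83, Krt86 and Krt87; Krt16) and members whose exons overlap another GENCODE M21 gene (Krt6a, Krt6b, Krt10, Krt12, Krt32, Krt75, Krt76, Krt80 and Krt90) are uncertain. Per the labels' protocols, tissue was fresh and libraries were prepared with a Kapa HyperPrep kit.

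Counts were filtered with filterByExpr (minimum count 10, minimum total 15), scaled by TMM (factors 0.708 to 1.24) and tested with edgeR's quasi-likelihood F test (version 4.0.16, R 4.3.3). All 3 groups shared 1 fit, with 3 degrees of freedom left for the spread. Benjamini-Hochberg adjustment ran over all 15050 genes, with a threshold of 0.05. The SE is the log2 fold change divided by the square root of F and is approximate. Against a group at 0 counts a fold is a lower bound set with 3 counts per library. Against 1 to 3 counts in all, the CPM ratio is given with an exact 95% interval. Intervals and bounds cover counting error only. Replicates differed by more than sampling noise in every group (chi-square over degrees of freedom 40.1 to 263). The tests were checked on simulated counts. These gave all genes the same spread and planted changes only in well-detected genes, so they do not cover members with few or no counts in a group. Table columns that matched no sample numbered 0.

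Alternatives were DESeq2 size factors within edgeR, library totals, no low-count filter, DESeq2 1.42.0, a replicate block, a fit of the 2 compared groups alone, and leaving out each library. The members, roles and lists were chosen with earlier results of these data known. Members with 10 counts or more in a library are named with their levels, others by name. Outside genes are the 7 remaining keratins and up to 6 called genes per list, by adjusted p. Untested Hoxc13, Foxn1, the Krtap sums and marker genes at 0 were chosen after their values were seen.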

Additional observations from a re-analysis of the deposited data

Results flagged for a closer look

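Of the tested members, 5 differed between 12Q and 48Q tumors by a test of the difference itself, which is also the difference of their responses relative to the shared WT libraries. Krt84 had a log2 fold change of -7.77 in 12Q against 48Q (edgeR adjusted p = 0.0188), with both 12Q libraries below both 48Q libraries. For Krt1 it was -5.92 (edgeR adjusted p = 0.0229) and for Krt81 -4.55 (edgeR adjusted p = 0.0496), with the same order in 2 of 2 libraries each. Krt80 had 3.34 (edgeR adjusted p = 0.0246) and Krt23 2.06 (edgeR adjusted p = 0.0205), with both 12Q libraries above both 48Q libraries. Each of the 5 lost its call without at least 2 of the 4 tumor libraries left out singly.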

How the results depend on the processing

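No result changed direction among those called. In 12Q against WT the called members numbered 8 to 15 when 1 library was left out and 11 to 14 under the other alternatives, and Krt4, Krt6a, Krt23, Krt36, Krt72, Krt73 and Krt80 kept their call under all 12. In 48Q against WT, 11 members were called, against 22 with library totals, 22 with DESeq2 and 0 (without WT replicate 1) to 11 with 1 library left out. Between the tumors 5 were called, against 13 with DESeq2 and 0 (without 48Q replicate 1) to 5 with 1 library left out. Over all genes, 3370 were called in 12Q against WT (1887 when only those groups were fitted, 1861 to 2934 with 1 library left out), 780 in 48Q against WT (2001 with library totals, 2540 with DESeq2, 0 to 1215 with 1 library left out) and 627 between tumors (2481 with DESeq2, 47 to 866 with 1 library left out). The cause was not tested. With library totals, all genes had a median log2 fold change of 0.48, 0.71 and -0.19 in these comparisons, and they moved the split in 12Q against WT to 3265 higher and 1032 lower, from 1687 and 1683. Their only sign changes were in members not called, Krt78 in 48Q against WT and Krt32 and Krt79 between tumors. The replicate numbers did not pair the samples (correlations of deviations 0.03, 0.13 and -0.10), and with the replicate block 12, 10 and 5 members were called, without Krt27, Krt81 and Krt86 in 48Q against WT and without Krt81 between tumors. Where an arm was left with 1 library, it was assumed to vary like the other groups. Members below 10 counts, and most Krtap genes, were too low for a difference to be detectable at this depth.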
